A study of Mus with 12 samples.

Results

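Small nucleolar RNA (snoRNA) host genes were followed in whole uteri of pregnant mice. Members were 10 named genes, Snhg1, Snhg3, Snhg5, Snhg6, Snhg8, Snhg12, Snhg15, Snhg20, Gas5 and Zfas1, and a row of a deposited table was taken as a member when its gene name held 1 of these symbols and it listed an Ensembl mouse transcript. This gave 10 rows of 87235 in the first table (E0.5, E4.5) and 10 rows of 40787 in the second (E15.5, E18.5), so each gene had a single row in each table. All mice were pregnant ICR females, an outbred strain, of 8 weeks per the labels, with 3 mice in each of 4 groups named by embryonic day and no other treatment or allele. The study's methods give a single age at mating instead, so the age at collection may have differed between the days. The study compared E0.5 with E4.5 as its implantation stage and E15.5 with E18.5 as its labor stage. The whole uterus of a mouse gave 1 library, so the replicates were separate animals, and muscle, stroma, epithelium and any tissue taken along with them were measured together. In such bulk samples fewer cells of a type and less RNA per cell cannot be told apart.

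A snoRNA host gene is transcribed and spliced like a messenger RNA, and its snoRNAs are cut out of the introns. Box C/D snoRNAs guide ribose methylation and box H/ACA snoRNAs guide pseudouridylation, mostly of ribosomal RNA, so the hosts belong to the machinery that makes ribosomes. The spliced exons of many hosts begin with a terminal oligopyrimidine tract, as the messenger RNAs of translation factors do, and are broken down by nonsense-mediated decay when they are translated, so that their level reflects both synthesis and decay.

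The rows were not equal to the genes they are named for. In 9 of the 10 rows of each table the gene was merged with snoRNAs, a small Cajal body RNA or a microRNA into 1 value, and only the row of Snhg6 carried no other name. All 10 rows of the first table overlapped the RefSeq gene of the same name on the assembly GRCm38.p6, the coordinates used throughout. For 3 genes the row was far longer than the gene. Snhg12 had a row of 44941 bp against 2347 bp in RefSeq, Snhg5 a row of 28295 bp against 1846 bp, and Snhg3 a row of 21745 bp against 1754 bp. The row that holds Snhg3 is that of Rcc1, the protein-coding gene of the nucleotide exchange factor for Ran, together with Snhg3 and Snora73a, and its values cannot be assigned to Snhg3 alone.

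The first table held counts, with 58020989 to 70906881 counts per library, of which the 10 rows took 9804 to 26577, or 0.0149% to 0.0397%. The highest of these, in E4.5 replicate 2, held 8043 counts of the Snhg12 row. The table for E15.5 and E18.5 held FPKM (fragments scaled to transcript length and library size) and no counts, so the counts behind its values are unknown. Some libraries stood apart. E4.5 replicate 3 carried ovary markers. There 8 of 8 ovary markers were highest, their summed level was 1349 FPKM against 5.69 and 6.41 in the other E4.5 libraries and 4.29 to 6.44 at E0.5, and Cyp19a1 and Fshr, which were above 0 there, were listed at 0 in the other 5 libraries. Erythroid markers were also highest there (5 of 5), with a sum of 704 FPKM against 63.6 to 388 FPKM, and oviduct markers summed to 89.1 FPKM against 12.5 to 38.1 FPKM, with 2 of 4 highest. Smooth muscle markers (6 of 6) and uterine epithelium markers (6 of 6) were lowest in that library, as were 6 of 7 markers of uterine stroma. Prl8a2, a decidual prolactin gene, stood at 1342 FPKM in E15.5 replicate 1. The decidua list summed there to 1354 FPKM, nearly all of it Prl8a2, against 58.6 to 98.9 in the other 5 libraries of its table. Of the 5 decidua markers only 1 was highest in that library, and 1 (Alpl) was lowest. Yolk sac markers summed to 11.3, 122 and 858 FPKM in the E15.5 libraries and 116 to 612 FPKM at E18.5, and trophoblast markers to 57.7, 7.196 and 4.52 FPKM at E15.5 and 55.3 to 86.6 FPKM at E18.5. Values without E4.5 replicate 3 and E15.5 replicate 1 are therefore given beside the results, and their part in the results was not tested beyond that.

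In the E0.5 and E4.5 table all 10 member rows had a lower fitted level at E0.5 than at E4.5, and none passed the test. The edgeR quasi-likelihood test on counts called 0 of 10 at a Benjamini-Hochberg adjusted p under 0.05, against 1.22% of the 59732 rows tested, and 0 of 10 at an unadjusted p under 0.05, against 17.0% of all rows. DESeq2 also called 0 of 10 after adjustment, against 9.85%, and 1 (Snhg12) before it, against 19.9%, while limma on log2(FPKM + 0.1) called 0, against 1.51%, and 1 (Snhg6) before adjustment, against 18.0%. The criterion of the study, a fold change of at least 1 on the log2 scale with an unadjusted p under 0.05, took 0 of 10 members and 12.2% of all rows with edgeR, and 1 (Snhg12) and 14.5% with DESeq2. The median log2 fold change, E0.5 minus E4.5, was -0.50 over the members and -0.01 over all rows tested, and 50.4% of all rows had a fitted value below 0. For a single gene an exact permutation test of 3 mice against 3 cannot give a two-sided p below 0.1.

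The pattern within E4.5 was shared by all members. E4.5 replicates 1 and 2 lay above every E0.5 library for 10 of 10 members, which held for 19.6% of all rows, and E4.5 replicate 3, the library with high ovary markers, was the lowest E4.5 library for 10 of 10, which held for 34.6% of all rows. Summed over the 10 rows, the level was 49.8, 44.5 and 56.3 FPKM in the E0.5 libraries and 75.5, 103 and 44.3 FPKM in E4.5 replicates 1, 2 and 3. Replicate 3 of E4.5 thus lay just below the lowest E0.5 library in the sum, while the other E4.5 libraries lay above all of E0.5. The sum of E4.5 replicate 2 held 21.0 FPKM of the Snhg12 row, which stood at 1.27 to 2.21 FPKM in the other libraries. The summed markers of uterine stroma were highest in E4.5 replicates 2 and 1 and lowest in E4.5 replicate 3. The sums were 32.0, 45.7 and 55.5 FPKM at E0.5, compared with 83.0, 125 and 15.7 FPKM for E4.5 replicates 1, 2 and 3. By gene, Hoxd10, Hoxa10, Hand2 and Pgr had this pattern and Hoxa11, Emx2 and Esr1 did not. In E4.5 replicate 1 Hoxa11 stood at 1.54 FPKM, below 5.41 to 10.1 FPKM at E0.5, and Esr1 lay inside its E0.5 range. Emx2 was highest in E0.5 replicate 3, at 8.04 FPKM. Markers of uterine epithelium summed to 198 to 251 FPKM at E0.5 and 60.5 to 148 FPKM at E4.5, and the part of either cell type in the host gene levels was not tested.

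**Figure D1:**
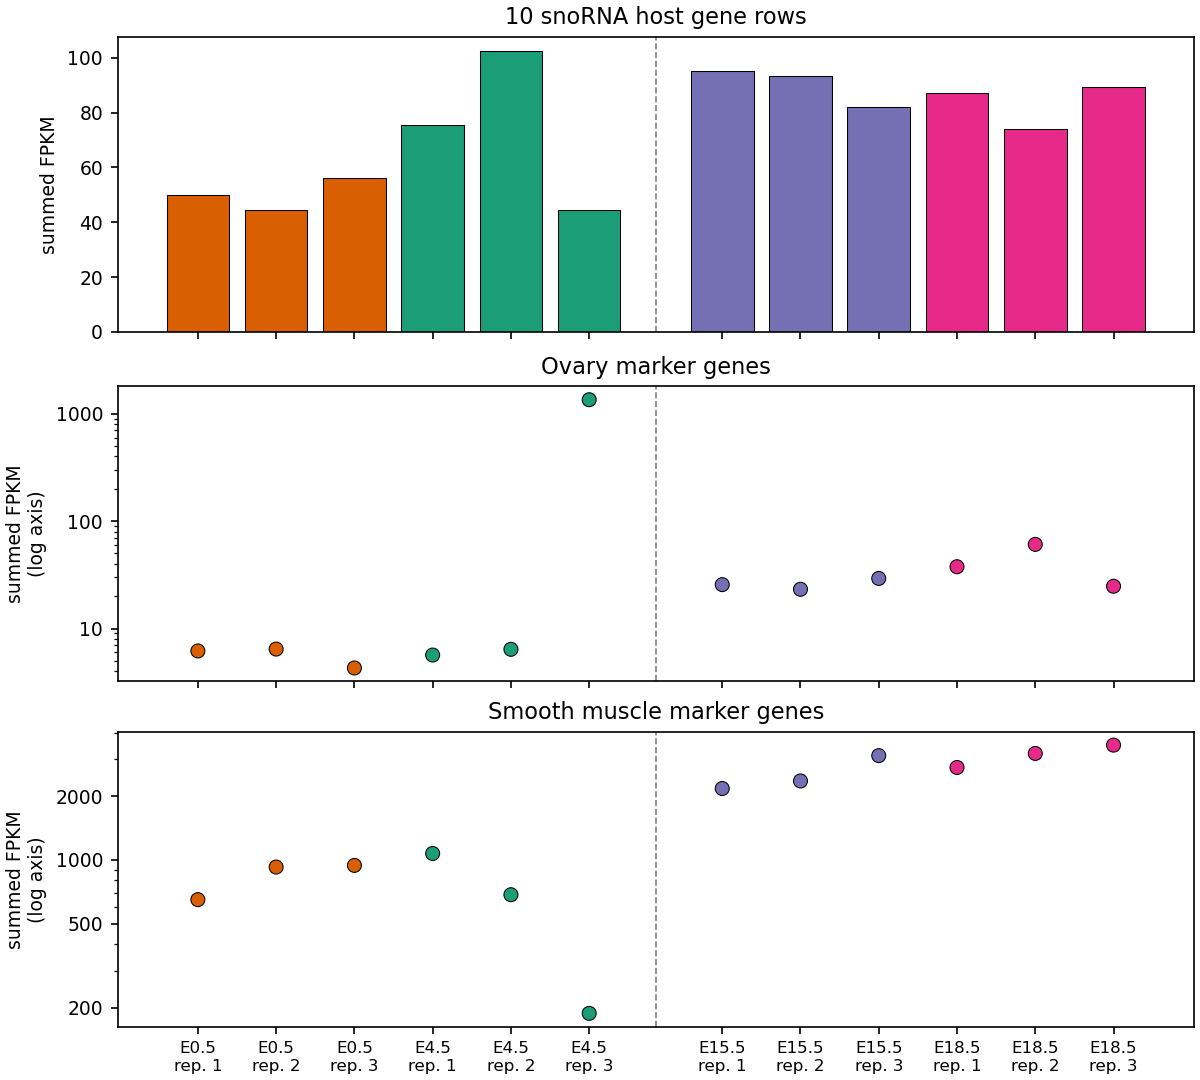
Summed FPKM per library of the 10 snoRNA host gene rows (top, bars), of 8 ovary marker genes (middle, log axis; 6 of them in the E15.5 and E18.5 table) and of 6 smooth muscle marker genes (bottom, log axis). In E4.5 replicate 3 the host genes summed to 44.3 FPKM, the ovary markers to 1349 FPKM and the smooth muscle markers to 188 FPKM. The top bar of E4.5 replicate 2 includes 21.0 FPKM of the Snhg12 row. The dashed line divides the 2 separately normalized tables.

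With E4.5 replicate 3 left out, 9 of the 10 members had an unadjusted p under 0.05 in edgeR, all lower at E0.5, and the exception was Snhg8. The share of all rows lower at E0.5 by that rule was 10.1%. After adjustment 1 of 10 members passed, Zfas1, against 6.08% of all rows, and the study criterion took Snhg12 and Snhg15, 2 of 10 against 14.1%. The median of the members was then -0.74, against 0.05 over all rows, whereas leaving out E4.5 replicate 1 or 2 instead gave medians of -0.27 and -0.33. Without E4.5 replicate 1, 1 of 10 members was lower at E0.5 at an unadjusted p under 0.05 in edgeR, against 7.46% of all rows. Without E4.5 replicate 2 it was 0 of 10, against 8.06%. Each of these fits leaves 2 mice at E4.5.

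Among the hosts of box C/D snoRNAs, Gas5, named for its rise in growth-arrested cells, carries snoRNAs in most of its introns, and its exonic RNA can bind the DNA-binding domain of the glucocorticoid receptor. The Gas5 row lay on chromosome 1 (161034422 to 161038539, plus strand), listed 35 Ensembl transcripts and was merged with 9 other names, among them Snord47, Snord78 and Snord80. Gas5 stood at 7.46, 6.10 and 7.98 FPKM in the E0.5 libraries and at 11.4, 11.0 and 6.57 FPKM at E4.5. Both E4.5 libraries with low ovary markers were above all of E0.5, and the third lay inside the E0.5 range. Its log2 fold change was -0.42 (SE 0.27, edgeR adjusted p = 0.455), and -0.65 (SE 0.17, adjusted p = 0.0817) without E4.5 replicate 3 but -0.24 without E4.5 replicate 1.

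Snhg1, an early known host of box C/D snoRNAs, lay on chromosome 19 (8723475 to 8726443, plus strand) in a row with 8 other names, among them Snord22. Its level was 7.80, 6.98 and 8.64 FPKM at E0.5, compared with 11.99, 13.6 and 6.35 FPKM at E4.5. E4.5 replicate 3 was here the lowest of the 6 libraries. The fitted log2 fold change was -0.44 (SE 0.31, edgeR adjusted p = 0.498) with all libraries, and -0.72 (SE 0.16, adjusted p = 0.0515) without that library but -0.26 without E4.5 replicate 2.

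Zfas1 is transcribed head to head with Znfx1 and hosts Snord12 snoRNAs, and it has been studied in the mammary gland. Its row lay on chromosome 2 (167062934 to 167065862, plus strand), with the same length as the RefSeq gene, 2929 bp. Zfas1 stood at 4.41, 4.32 and 4.77 FPKM at E0.5, compared with 7.81, 8.65 and 3.62 FPKM at E4.5. The E0.5 mice were close together, at 4.498 ± 0.242 FPKM (SD, n = 3), and E4.5 replicate 3 was below all of them. With all libraries the log2 fold change was -0.57 (SE 0.35, edgeR adjusted p = 0.439). Without E4.5 replicate 3 it was -0.88 (SE 0.18, adjusted p = 0.0343), the only call among the members after adjustment in the fits run at this stage, and without E4.5 replicate 2 it was -0.37.

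Snhg5 hosts the box C/D snoRNAs Snord50a and Snord50b, both merged into its row on chromosome 9 (88495268 to 88523562, minus strand). Its mean over all 6 libraries was the lowest of the members, from 1.66, 1.44 and 1.86 FPKM at E0.5, compared with 3.35, 2.11 and 1.82 FPKM at E4.5, although Snhg12 was lower in 4 of the 6 libraries. E4.5 replicate 1 stood above the rest, and replicate 3 fell inside the E0.5 range. For Snhg5 the log2 fold change was -0.56 (SE 0.31, edgeR adjusted p = 0.397), and -0.75 (SE 0.28, adjusted p = 0.189) without E4.5 replicate 3 but -0.20 without E4.5 replicate 1.

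Snhg6, host of the box C/D snoRNA Snord87, was the member with the cleanest row, on chromosome 1 (9941959 to 9944118, minus strand), with 5 Ensembl transcripts and no small RNA merged in. Its level was 4.24, 2.02 and 4.58 FPKM at E0.5 against 5.90, 7.37 and 5.37 FPKM at E4.5. Snhg6 was the 1 member of 10 whose groups did not overlap with E0.5 lower, a pattern that 12.5% of all rows showed. The means were 3.61 ± 1.39 and 6.22 ± 1.04 FPKM (SD, n = 3 each), and the log2 fold change was -0.77 (SE 0.35, edgeR adjusted p = 0.318). Leaving out E4.5 replicate 3 gave -0.89 (SE 0.36, adjusted p = 0.225), and leaving out E0.5 replicate 2 gave -0.49. The Snord87 row inside it (chromosome 1, 9942463 to 9942549, 87 bp) had 10, 19 and 17 counts at E0.5 and 38, 28 and 8 at E4.5, with a log2 fold change of -0.65 (SE 0.87, edgeR adjusted p = 0.743), and -1.07 without E4.5 replicate 3.

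**Figure D2:**
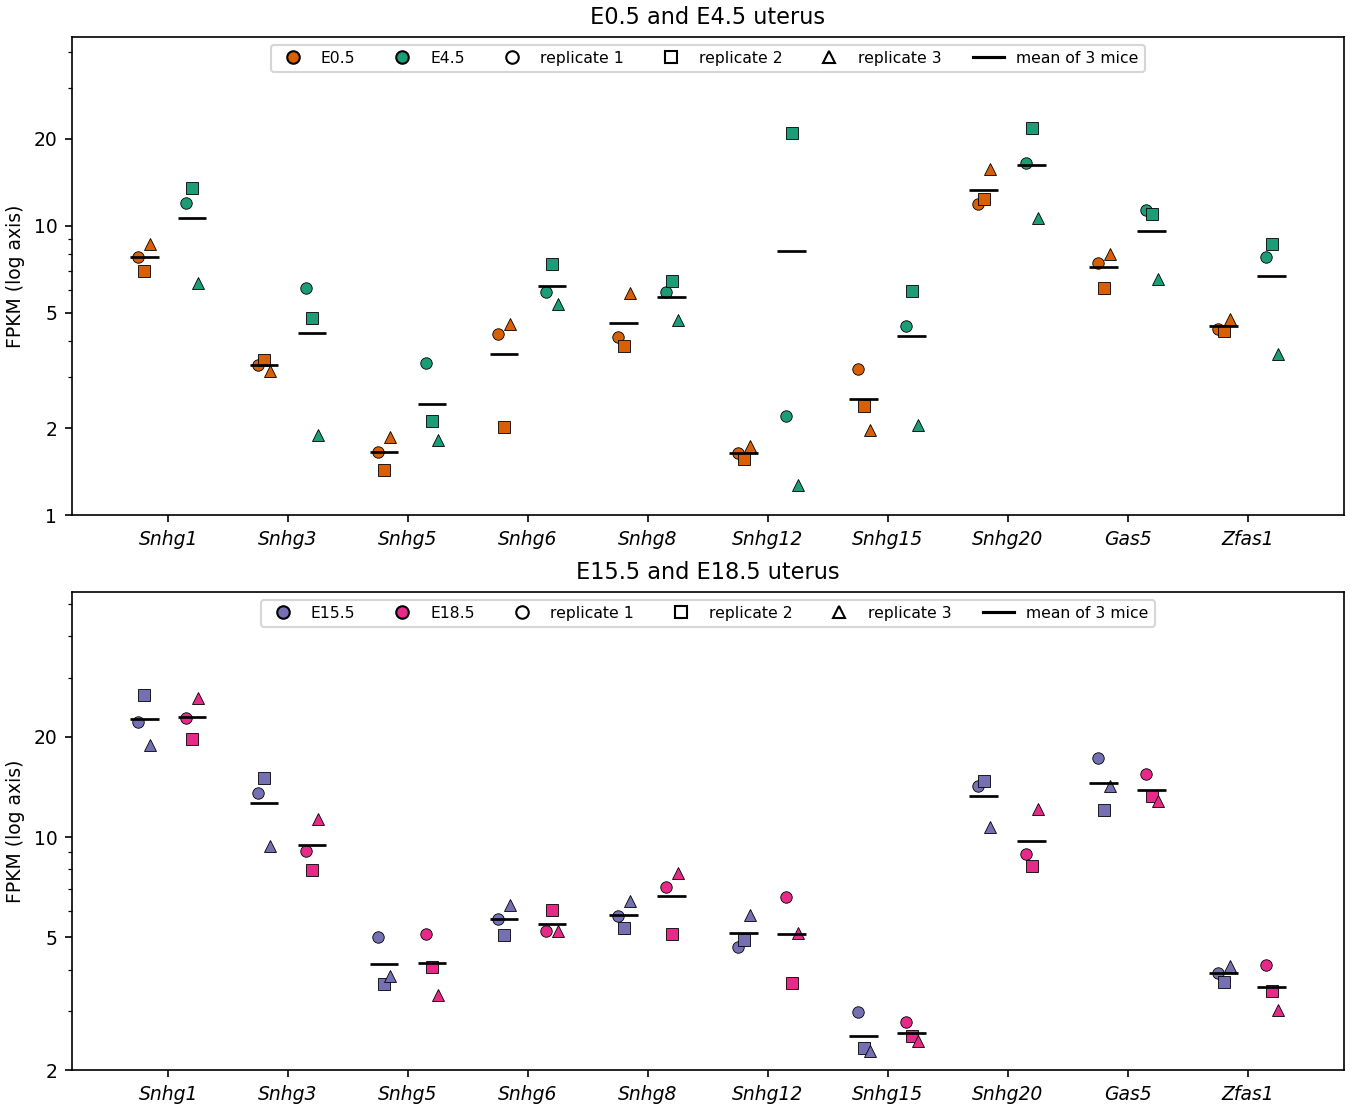
FPKM (log axis) of the 10 host gene rows in each library, E0.5 and E4.5 above and E15.5 and E18.5 below; a symbol is 1 mouse and a bar the mean of 3. In the upper panel the E4.5 circles and squares lie above the E0.5 symbols for all 10 rows and the E4.5 triangle is the lowest of its group. In the lower panel the groups overlap for every row.

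Among the hosts of box H/ACA snoRNAs, Snhg12 had the largest fitted difference and the least even values. It stood at 1.64, 1.56 and 1.73 FPKM at E0.5, compared with 2.21, 21.0 and 1.27 FPKM at E4.5, from 664, 547 and 714 counts and 890, 8043 and 490 counts. E4.5 replicate 2 alone was far above the others, while the remaining E4.5 libraries bracketed the E0.5 range. The log2 fold change was -2.27 (SE 0.997, edgeR adjusted p = 0.311), with -2.78 (SE 0.73, adjusted p = 0.0789) without E4.5 replicate 3 and -0.11 (SE 0.33, adjusted p = 0.910) without E4.5 replicate 2. With all libraries, limma on log2(FPKM + 0.1) gave -1.22 (SE 0.92, adjusted p = 0.541).

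The Snhg12 row (chromosome 4, 132308623 to 132353563, plus strand) merged Snhg12 with Snora16a, Snora44, Snora61, Snord99 and Gm17300. It ran past Trnau1ap and overlapped the Rcc1 and Snhg3 row on the opposite strand by 21645 bp. Whether the counting used the strand is not given in the sources used here, and reads of the overlap may stand in either row. Of the 16 Ensembl transcripts of the Snhg12 row, 13 were found in the rows for E15.5 and E18.5, split over 3 rows. There Gm17300 stood at 37.3, 52.97 and 22.8 FPKM at E15.5 and 14.8, 25.9 and 30.9 FPKM at E18.5, and Snora16a at 3.44, 1.62 and 1.78 FPKM and 0.878, 1.03 and 1.42 FPKM. The row of Snhg12 itself was merged there with Snora44, Snora61 and Snord99 and stood between 3.66 and 6.61 FPKM. The level per length was thus higher for Gm17300 than for Snhg12 in every library of that table, and which of the parts made the high value of E4.5 replicate 2 cannot be told apart in the merged row.

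**Figure D3:**
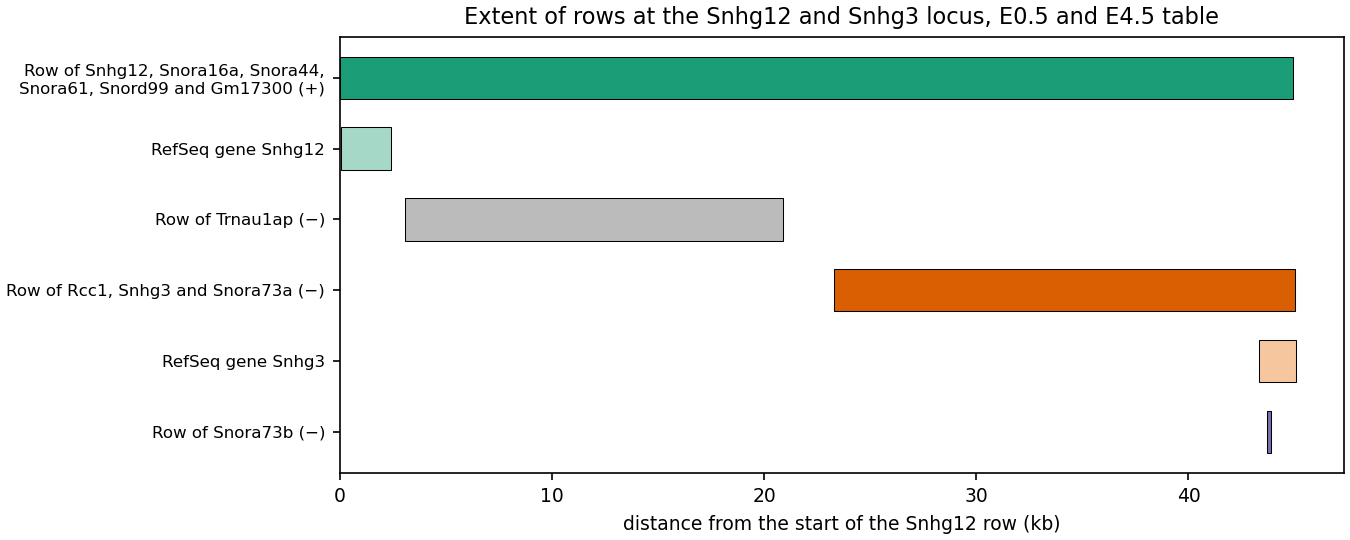
Extent of the rows around Snhg12 and Snhg3 in the E0.5 and E4.5 table and of both RefSeq genes, in kb from the start of the Snhg12 row; signs give the strand. The Snhg12 row covers 44941 bp against 2347 bp of the RefSeq gene and spans the Trnau1ap row and most of the row that holds Rcc1 and Snhg3.

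Snhg3 hosts Snora73a and Snora73b, H/ACA snoRNAs that act in the processing of the small ribosomal subunit RNA. The row it shared with Rcc1 (chromosome 4, 132331919 to 132353663, minus strand) stood at 3.30, 3.44 and 3.14 FPKM at E0.5, compared with 6.08, 4.80 and 1.89 FPKM at E4.5. E4.5 replicate 3 was the lowest of all 6 libraries and the other E4.5 libraries were the highest. The log2 fold change was -0.38 (SE 0.42, edgeR adjusted p = 0.688), and -0.74 (SE 0.19, adjusted p = 0.0679) without E4.5 replicate 3 but 0.023 without E4.5 replicate 1. Snora73b had a row of its own inside Snhg3 (chromosome 4, 132352322 to 132352526, 205 bp), with 29.4, 46.1 and 42.3 FPKM at E0.5, compared with 67.3, 48.9 and 11.6 FPKM at E4.5. It followed the same order of libraries within E4.5 as the Rcc1 and Snhg3 row, and its log2 fold change was -0.13 (SE 0.60, edgeR adjusted p = 0.933), and -0.58 without E4.5 replicate 3.

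Snhg15, host of Snora9, lay on chromosome 11 (6525591 to 6528779, minus strand) inside the span of Ccm2 on the other strand. It stood at 3.21, 2.39 and 1.97 FPKM at E0.5, compared with 4.505, 5.96 and 2.05 FPKM at E4.5. E4.5 replicate 3 was inside the E0.5 range. In edgeR the log2 fold change was -0.72 (SE 0.41, edgeR adjusted p = 0.409), and -1.06 (SE 0.24, adjusted p = 0.0535) without that library but -0.41 without E4.5 replicate 2.

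Snhg8, host of Snora24, had the shortest row, 853 bp on chromosome 3 (123507552 to 123508404, minus strand). Its values were 4.13, 3.86 and 5.84 FPKM at E0.5, compared with 5.90, 6.44 and 4.71 FPKM at E4.5. E0.5 replicate 3 lay above E4.5 replicate 3 and just below the other E4.5 libraries, and the difference was among the smallest of the members. The log2 fold change was -0.29 (SE 0.28, edgeR adjusted p = 0.629), and -0.43 (SE 0.27, adjusted p = 0.434) without E4.5 replicate 3, with -0.18 and -0.50 without E0.5 replicates 2 and 3.

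Snhg20, merged with Mir6516 and a small Cajal body RNA on chromosome 11 (117076008 to 117078955, plus strand), was the most abundant member at this stage. It stood at 11.9, 12.4 and 15.7 FPKM at E0.5, compared with 16.4, 21.7 and 10.7 FPKM at E4.5. The lowest and the highest library both belonged to E4.5. Its log2 fold change was -0.28 (SE 0.29, edgeR adjusted p = 0.659), and -0.52 (SE 0.19, adjusted p = 0.186) without E4.5 replicate 3 but -0.041 without E4.5 replicate 2.

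**Figure D4:**
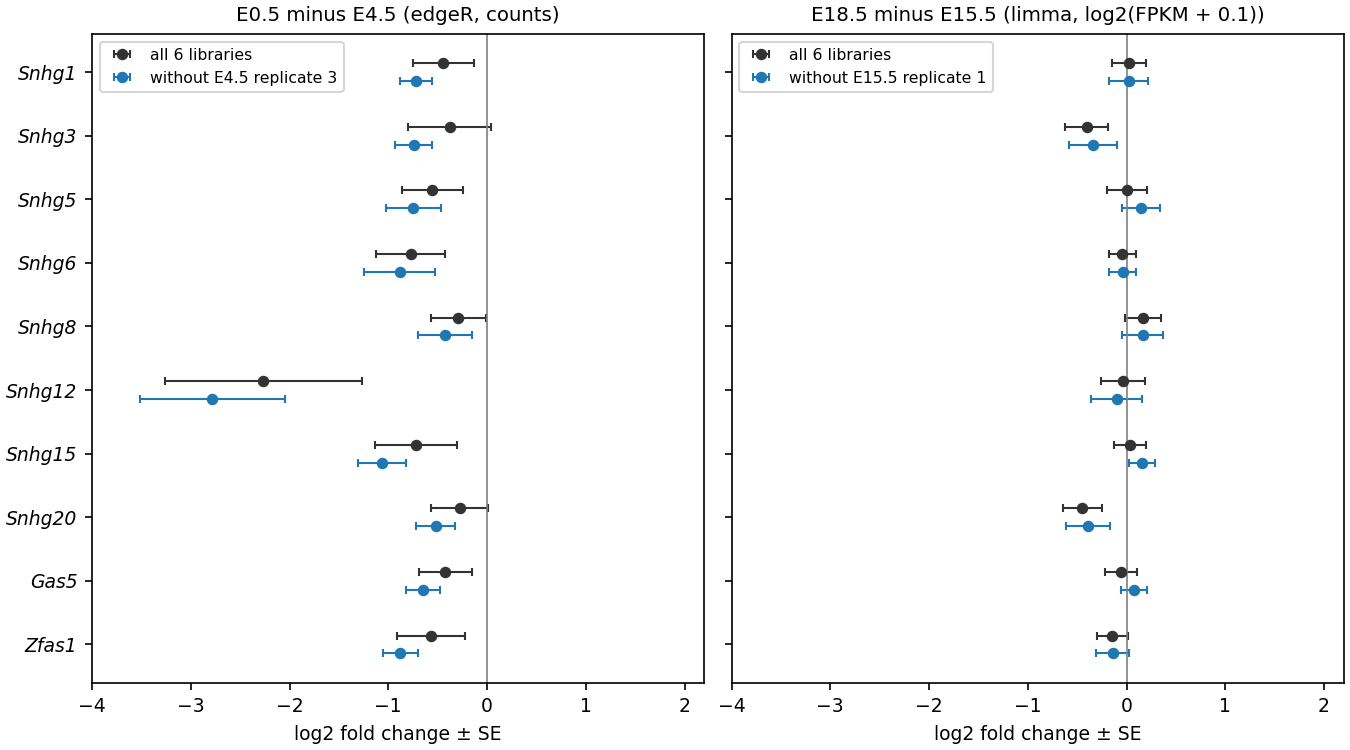
Log2 fold change with its SE for each host gene, E0.5 minus E4.5 from edgeR on counts (left) and E18.5 minus E15.5 from limma on log2(FPKM + 0.1) (right), with all 6 libraries (black) and without E4.5 replicate 3 on the left or E15.5 replicate 1 on the right (blue). On the left the black values run from -2.27 (Snhg12) to -0.28 (Snhg20) and every blue value lies further below 0, and on the right the black values run from -0.45 (Snhg20) to 0.17 (Snhg8).

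No host gene passed the test between E18.5 and E15.5, and the fitted log2 fold changes lay between -0.45 and 0.17. limma on log2(FPKM + 0.1) called 0 of 10 members, against 0.0259% of the 30928 rows tested, or 8 rows, and 0 of 10 at an unadjusted p under 0.05, against 12.2% of all rows. The study criterion took 0 of 10 against 6.05%. limma without the trend also called 0 of 10 after adjustment. The groups overlapped for every member, while all E18.5 libraries lay below all E15.5 libraries in 8.96% of all rows and above them in 10.9%. The median log2 fold change, E18.5 minus E15.5, was -0.04 over the members and 0.02 over all rows, and without E15.5 replicate 1 it was -0.01 against 0.03. That fit, too, called 0 of 10 members in limma after adjustment, against 0.0841%, and 0 of 10 before it, against 10.6%. Summed over the 10 rows, the level was 95.3, 93.5 and 82.0 FPKM at E15.5 and 87.3, 74.1 and 89.5 FPKM at E18.5.

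Snhg20 and the Rcc1 and Snhg3 row had the lowest fitted values of this stage. Snhg20 stood at 14.2, 14.8 and 10.7 FPKM at E15.5 and at 8.87, 8.18 and 12.1 FPKM at E18.5. The E18.5 replicate 3 value lay above E15.5 replicate 3, which was the only overlap between the groups. The log2 fold change of Snhg20 was -0.45 (SE 0.20, limma adjusted p = 0.430). The Rcc1 and Snhg3 row stood at 13.6, 15.0 and 9.42 FPKM at E15.5 and 9.11, 7.97 and 11.3 FPKM at E18.5, with a log2 fold change of -0.40 (SE 0.22, limma adjusted p = 0.499). The same 2 libraries, replicate 3 of each day, overlapped in this row. E15.5 replicate 3 was the library with the highest yolk sac markers, and without it the log2 fold changes were -0.59 for Snhg20 and -0.60 for the Rcc1 and Snhg3 row. Without E15.5 replicate 3 the number of members with an unadjusted p under 0.05 was 2 of 10, against 14.1% of all rows, and none passed after adjustment.

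Snhg1 was the most abundant member at E15.5, at 22.2, 26.7 and 18.9 FPKM, and at E18.5, at 22.8, 19.7 and 26.2 FPKM. Its groups covered nearly the same range, with a log2 fold change of 0.03 (SE 0.17, limma adjusted p = 0.966). Gas5 followed, at 17.2, 12.01 and 14.3 FPKM at E15.5 and 15.46, 13.3 and 12.8 FPKM at E18.5, with a log2 fold change of -0.05 (SE 0.16, limma adjusted p = 0.916). Its E18.5 libraries all lay inside the E15.5 range. Snhg8 had the highest fitted value of the members, 0.17 (SE 0.18, limma adjusted p = 0.735), from 5.79, 5.34 and 6.41 FPKM at E15.5 and 7.09, 5.13 and 7.78 FPKM at E18.5. E18.5 replicate 2 of Snhg8 was below all E15.5 libraries although the other 2 were above them.

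Zfas1 stood at 3.91, 3.69 and 4.10 FPKM at E15.5 and at 4.15, 3.46 and 3.04 FPKM at E18.5, with a log2 fold change of -0.14 (SE 0.16, limma adjusted p = 0.739). The E18.5 mice of Zfas1 spread on both sides of the E15.5 mice. Snhg6, without a merged small RNA, stood at 5.66, 5.07 and 6.26 FPKM at E15.5 and 5.23, 6.03 and 5.21 FPKM at E18.5, with a log2 fold change of -0.04 (SE 0.14, limma adjusted p = 0.923). Its E18.5 mice all fell inside the E15.5 range. Snhg5 (5.03, 3.64 and 3.82 FPKM against 5.13, 4.09 and 3.37 FPKM), Snhg12 (4.68, 4.92 and 5.83 FPKM against 6.61, 3.66 and 5.14 FPKM) and Snhg15 (3.00, 2.33 and 2.28 FPKM against 2.80, 2.53 and 2.44 FPKM) had fitted log2 fold changes of 0.01, -0.04 and 0.04 (limma adjusted p = 0.994, 0.964 and 0.952). The groups of these 3 genes overlapped, and Snhg15 had the lowest level of the members at this stage. Without E15.5 replicate 1 the log2 fold changes of Snhg5, Snhg12 and Snhg15 were 0.15, -0.10 and 0.16. Those of Gas5 and Snhg1 were then 0.077 and 0.020, and those of Snhg20, the Rcc1 and Snhg3 row, Zfas1, Snhg6 and Snhg8 were -0.39, -0.34, -0.14, -0.041 and 0.16.

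The Snord87 row inside Snhg6 stood at 2.35, 2.0 and 1.93 FPKM at E15.5 and at 0.349, 0.662 and 1.24 FPKM at E18.5. Its groups did not overlap while those of Snhg6 did, and 8.96% of all rows had all E18.5 libraries below all E15.5 libraries. The log2 fold change of Snord87 on the log2(FPKM + 0.1) scale was -1.50 (SE 0.39, limma adjusted p = 0.214), which did not pass. Snora73b stood at 355, 330 and 271 FPKM at E15.5 and 358, 224 and 344 FPKM at E18.5, with a log2 fold change of -0.07 (SE 0.26, limma adjusted p = 0.938), and 0.015 without E15.5 replicate 1. Both rows were chosen for description after their values were seen. Of the 1325 rows of the first table that hold snoRNAs or small Cajal body RNAs alone, 63.8% had no count in any library, and edgeR called 0 of the 365 tested after adjustment, against 1.22% of all rows, and 7 before it, against 17.0%. Mature snoRNAs are shorter than the cDNA fragments of such libraries.

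Whether the day effect differed between the stages was tested directly, as E0.5 minus E4.5 less E18.5 minus E15.5 in limma over all 12 libraries and the 22056 rows that share transcripts between the tables and passed the filter. The test called 0 of 10 members, against 2.64% of all rows, and 0 of 10 at an unadjusted p under 0.05, against 18.2%. Snhg6 came closest, with a difference of -0.80 on the log2 scale (SE 0.38, limma adjusted p = 0.295), and Snhg12 had the largest difference with the largest error, -1.18 (SE 1.06, limma adjusted p = 0.603). The rows set against each other were unlike for Snhg12, with 16 Ensembl transcripts in the first table and 10 in the second, for Snhg5, with 30 and 8, and for Snhg20, with 9 and 4, while Zfas1 had 10 and 9 and the other 6 genes had equal numbers. Without E4.5 replicate 3 the same test had 5 of 10 members at an unadjusted p under 0.05, against 21.4% of all rows, and called 0 after adjustment, against 5.76%. Without E15.5 replicate 1 it called 0 after adjustment, against 2.71%, and 0 of 10 before it, against 17.8%. For none of these genes was a difference between the stages shown.

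The order of the levels, per length, differed between the tables, which were assembled and normalized separately. Over the 6 libraries of E0.5 and E4.5 the mean ran from Snhg20 (14.8 FPKM) through Snhg1 (9.22), Gas5 (8.41), Zfas1 (5.59), Snhg8 (5.15), Snhg6 (4.91), Snhg12 (4.90), the Rcc1 and Snhg3 row (3.77) and Snhg15 (3.35) to Snhg5 (2.04). The mean of Snhg12 rested on E4.5 replicate 2. Without that library, an alternative chosen after the values were seen, it was 1.68 FPKM, the lowest of the members, with Snhg5 next at 2.03. At E0.5 Snhg20 lay above all others, Snhg1 and Gas5 overlapped each other, and Zfas1, Snhg8 and Snhg6 overlapped one another. Over E15.5 and E18.5 the mean ran from Snhg1 (22.7 FPKM) through Gas5 (14.2), Snhg20 (11.5), the Rcc1 and Snhg3 row (11.1), Snhg8 (6.26), Snhg6 (5.58), Snhg12 (5.14), Snhg5 (4.18) and Zfas1 (3.72) to Snhg15 (2.56). In that table Snhg1 lay above every other member in all 6 libraries, Gas5, Snhg20 and the Rcc1 and Snhg3 row overlapped, and Snhg15 lay below every other member. Apart from the Rcc1 row, which is classed as protein coding, the members stood, by their mean over 6 libraries, above 85.8% (Snhg5) to 99.5% (Snhg20) of the 3757 known long noncoding RNA rows tested in the first table and above 94.4% (Snhg15) to 99.1% (Snhg1) of the 2930 in the other.

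With all libraries, the genes described here next to the members did not pass the test at either stage. Znfx1, a zinc finger helicase gene whose row overlaps that of Zfas1 by 82 bp on the other strand, stood at 9.04, 9.95 and 11.8 FPKM at E0.5, compared with 5.86, 6.02 and 7.14 FPKM at E4.5. Its E0.5 mice were all above its E4.5 mice, a pattern that 12.8% of all rows showed. The groups of Zfas1 overlapped, and the log2 fold change of Znfx1 was 0.71 (SE 0.17, edgeR adjusted p = 0.106). Prss12, a serine protease gene 954 bp from Snhg8, stood at 0.681, 0.321 and 0.693 FPKM at E0.5, compared with 3.81, 3.33 and 0.186 FPKM at E4.5 (log2 fold change -2.12, SE 0.97, edgeR adjusted p = 0.323). As in the host genes, E4.5 replicates 1 and 2 were high and E4.5 replicate 3 was low. Prss12 passed without that library, at -2.67 (edgeR adjusted p = 0.0107). Slc3a2, the amino acid transporter heavy chain 105 bp from Snhg1, was instead highest in E4.5 replicate 3, at 17.0 FPKM against 5.54 to 7.30 FPKM in the other 5 libraries (log2 fold change -0.66, edgeR adjusted p = 0.415, and -0.10 without that library). Myo1g, a myosin gene of blood cells near Snhg15, had a log2 fold change of 1.34 (SE 0.48, edgeR adjusted p = 0.232) at the first stage and -1.08 (SE 0.27, limma adjusted p = 0.197) at the second. Among further neighbours the fitted log2 fold changes, E0.5 minus E4.5, were -0.24 for Zbtb37, -0.23 for Trnau1ap, -0.00016 for Phactr4, 0.13 for Mcmdc2 and 0.28 for Ccm2. Without E4.5 replicate 3 those of Zbtb37, Phactr4 and Ccm2 were -0.042, -0.28 and 0.13.

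Most proteins that bind and assemble snoRNAs had fitted values of the same sign as the host genes at the first stage, and none passed after adjustment. Of 8 core proteins of the snoRNA particles, edgeR called 0 at an adjusted p under 0.05 and 5 had an unadjusted p under 0.05, all lower at E0.5, with a median log2 fold change of -0.69. Of all rows 1.22% were called, and 8.75% were lower at E0.5 at that unadjusted p. Dkc1, the pseudouridine synthase of the H/ACA particle and itself a snoRNA host, stood at 1.28 ± 0.164 FPKM at E0.5, compared with 3.48 ± 1.16 FPKM at E4.5 (SD, n = 3 each), with a log2 fold change of -1.44 (SE 0.31, edgeR adjusted p = 0.0839). Its H/ACA partner Nop10 had a log2 fold change of -0.86 (SE 0.21, edgeR adjusted p = 0.105), whereas Gar1, of the same particle, had 0.09 (-0.07 without E4.5 replicate 3) and the row of Fbl, the methyltransferase of the C/D particle, merged there with the protein-coding gene Dyrk1b, 0.21. Without E4.5 replicate 3 edgeR called 2 of the 8, against 6.08% of all rows, Dkc1 at -1.69 (adjusted p = 0.00798) and Nop58, a core protein of the C/D particle (adjusted p = 0.0237), the latter named after its values were seen.

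Of 10 assembly factors, edgeR called 0 after adjustment and 5 had an unadjusted p under 0.05, again all lower at E0.5, against 8.75% of all rows, with a median of -0.68. Znhit6, which acts in building C/D particles, stood at 0.719 ± 0.224 FPKM at E0.5, compared with 3.40 ± 1.94 FPKM at E4.5, with a log2 fold change of -2.25 (SE 0.56, edgeR adjusted p = 0.116). Without E4.5 replicate 3 it passed, at -2.67 (edgeR adjusted p = 0.00458), the 1 call of that list, against 6.08% of all rows. Ruvbl1, an ATPase of the same assembly pathway, had -0.94 (SE 0.20, edgeR adjusted p = 0.0778), and the highest values of the list were -0.01 for Pih1d1 and 0.07 for Nufip1, or 0.12 and 0.029 without that library. Markers of cycling cells, which make ribosomes at a high rate, moved with these lists. All 7 were higher in each E4.5 library than at E0.5, with sums of 56.7, 41.1 and 46.7 FPKM in E4.5 replicates 1, 2 and 3 against 11.3 to 13.1 FPKM at E0.5. By its sum E4.5 replicate 3 was thus inside the E4.5 range for cycling markers, although it was the lowest E4.5 library for the host genes. By gene it was highest for 2 of the 7 (Pcna and Ccnb1) and the lowest E4.5 library for Top2a, Mki67 and Cdk1. The part of cycling cells in either result was not tested.

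Protein-coding genes that host snoRNAs numbered 12, with Dkc1, Nop56 and Nop58 also counted among the core proteins. In edgeR 0 passed after adjustment, 6 were lower at E0.5 and 1 higher at an unadjusted p under 0.05, against 17.0% of all rows in either direction, and the median log2 fold change was -0.50, as in the members. Wdr43, a factor of small subunit processing, stood at 2.62 ± 0.0669 FPKM at E0.5, compared with 4.65 ± 0.677 FPKM at E4.5, with a log2 fold change of -0.82 (SE 0.19, edgeR adjusted p = 0.0935). The highest values were those of the translation genes Tpt1, 0.46 (SE 0.18, edgeR adjusted p = 0.261), and Eif4a2, 0.49 (SE 0.41, edgeR adjusted p = 0.575, and 0.92 without E4.5 replicate 3). Without E4.5 replicate 3, 5 of the 12 passed, against 6.08% of all rows, all lower at E0.5, Dkc1 and Wdr43 (adjusted p = 0.0177) among them.

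The other long noncoding snoRNA hosts, 11 tested rows of genes that are not members, had a median of -0.29, with 0 called by edgeR after adjustment, against 1.22% of all rows, and 1 before it, against 17.0%. That row was the Snhg14 transcript merged with Snrpn and Snurf, an imprinted snoRNA host, at 0.738 ± 0.0932 FPKM at E0.5, compared with 1.54 ± 0.216 FPKM at E4.5 (log2 fold change -1.05, SE 0.19, edgeR adjusted p = 0.0591, and 0.0320 without E4.5 replicate 3, where 6.08% of all rows passed), while a further Snhg14 row had 0.15 and, without that library, 0.039. Snhg11 had the lowest value, -1.90, with an SE of 1.33 and a value of 0.40 without E4.5 replicate 3, and Epb41l4aos the highest, 0.26, which was 0.0011 without that library.

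Nonsense-mediated decay factors and terminal oligopyrimidine genes had medians nearer to that of all rows. The 10 decay factors had a median of -0.17, with 0 called by edgeR after adjustment and 1 before it, against 1.22% and 17.0% of all rows, Upf2, at -0.52 (SE 0.17, edgeR adjusted p = 0.187). Smg5 followed at -0.33, and the highest were Upf3a at -0.01 and Smg6 at 0.09, or 0.22 and 0.21 without E4.5 replicate 3. The 15 terminal oligopyrimidine genes, ribosomal proteins left out, had a median of 0.09 and, without E4.5 replicate 3, of -0.13, with 0 called after adjustment and 1 in each direction before it, against the same shares. Nap1l1, a histone chaperone gene, had -0.98 (SE 0.45) and Hnrnpa1, an RNA-binding protein gene, -0.66 (SE 0.18), against 0.30 for Eif4b (0.18 without that library) and 0.46 for Tpt1. The members had a median of -0.50 beside that 0.09, and the difference between the lists was not tested.

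**Figure D5:**
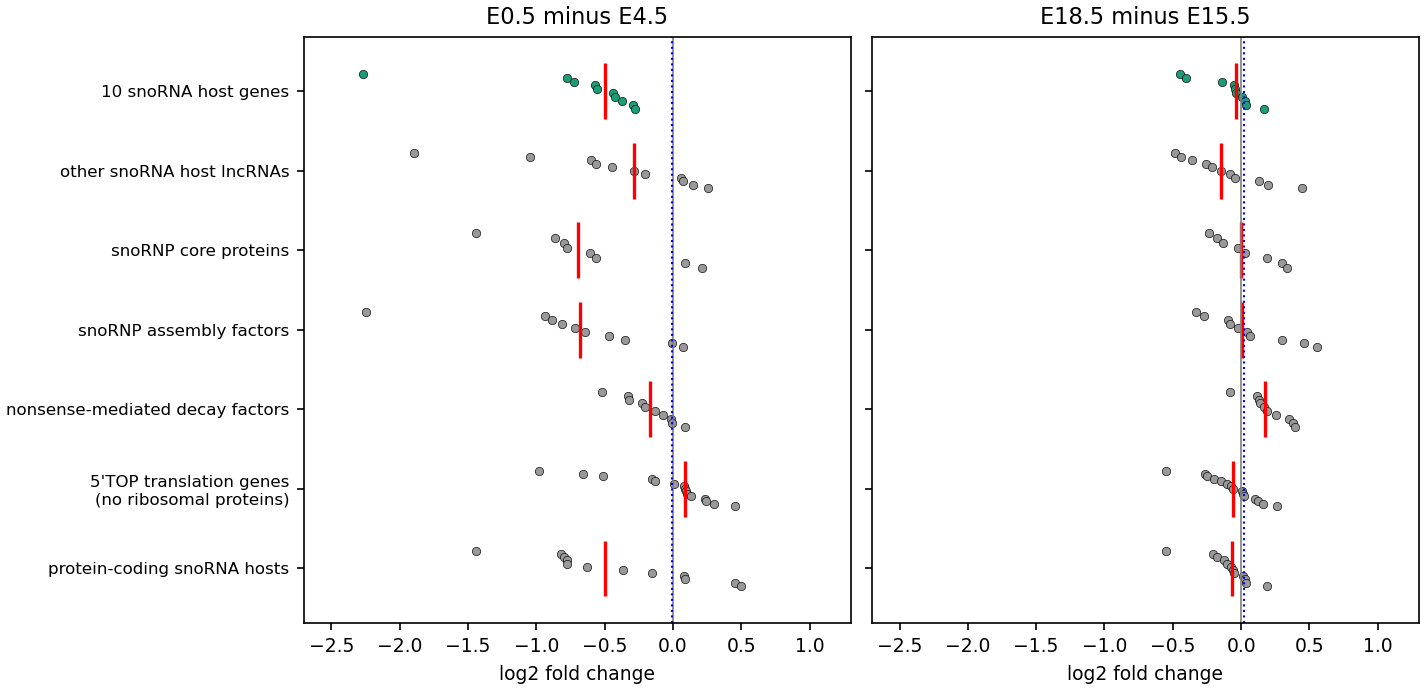
Fitted log2 fold change of each tested row (points) in the 10 host genes and 6 related lists, E0.5 minus E4.5 from edgeR on the left and E18.5 minus E15.5 from limma on the right; red bars are list medians and the dotted blue line is the median of all rows. On the left the medians run from -0.69 (snoRNA particle core proteins) to 0.09 (terminal oligopyrimidine genes), and on the right from -0.15 to 0.18.

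Between E18.5 and E15.5 limma called 0 rows of every list after adjustment, against 0.0259% of all rows, and only 2 rows had an unadjusted p under 0.05, against 12.2%, the assembly factors Nolc1 (log2 fold change 0.46, SE 0.19, limma adjusted p = 0.399, and 0.30 without E15.5 replicate 1) and Rpap3 (0.55, SE 0.19, limma adjusted p = 0.311), both higher at E18.5. The medians were -0.15 for the other long noncoding hosts, 0.0024 for the core proteins, 0.0080 for the assembly factors, 0.18 for the decay factors, -0.06 for the terminal oligopyrimidine genes and -0.07 for the protein-coding hosts. Without E15.5 replicate 1 they were -0.09, 0.081, 0.055, 0.097, -0.04 and 0.0056 in the same order. Among the other long noncoding hosts the lowest values were -0.48 for Snhg9 (-0.24 without E15.5 replicate 1) and -0.44 for Snhg11, and the highest were 0.20 for a Snhg14 row and 0.44 for Epb41l4aos. The assembly ATPase gene Ruvbl2 had -0.33 and Znhit3 -0.27, the lowest of the assembly factors. Of the decay factors Smg1 and Smg8 were lowest, at -0.08 and 0.12, and Upf2 and Upf1 highest, at 0.38 and 0.39. Without E15.5 replicate 1 these 4 values were 0.016, 0.056, 0.23 and 0.12. In the terminal oligopyrimidine list Eef1a1, a translation elongation factor gene, had -0.26 (-0.042 without that library), next to the lowest, and the highest were Eif3h at 0.16 (0.049 without it) and Nap1l1 at 0.26. Of the protein-coding hosts Eif4a1 was next to the lowest, at -0.21, and Ncl and Nop56 were highest, at 0.033 (0.022 without that library) and 0.19 (0.12 without it). Rack1, a ribosomal scaffold gene that hosts snoRNAs, had the lowest value of both these lists, -0.55 (SE 0.32, limma adjusted p = 0.527), and -0.20 without E15.5 replicate 1. Dkc1 and Nop10, the lowest core proteins at the first stage, stood at -0.17 and -0.23 here, and Fbl, in a row of its own in this table, at 0.34. Without E15.5 replicate 1 these 3 values were -0.011, -0.029 and 0.045. Gar1 stood at 0.30, and at 0.22 without that library.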

How the data were processed

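RNA-seq of 12 whole uteri was analysed from the 2 deposited tables, 1 per stage. The authors trimmed the reads, mapped them to the mouse genome, merged StringTie transcripts into rows and computed FPKM with StringTie and Ballgown. The submitters' processing notes list Bowtie 0.12.2, HISAT2 2.0 and StringTie 1.3.0. The labels name poly(A) selection and the study's methods name depletion of ribosomal RNA. The counting tool and the use of strand are not given in the sources used here. The authors deposited FPKM in both tables and whole-number counts in the first only, where 0.0001 FPKM stands for 0.

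The filter on low values kept rows that averaged 0.1 FPKM or more, 59732 in the first table and 30928 in the second. Counts, as deposited, were tested with edgeR 4.0.16 (TMM, quasi-likelihood) and, as an alternative, DESeq2 1.42.0, under R 4.3.3. The log2(FPKM + 0.1) values went into limma 3.58.1 with a trend. Folds on that scale understate changes of low rows. Calls used a Benjamini-Hochberg adjusted p under 0.05 over all rows. Rows without a gene name took 1.02% to 1.86% of the counts and were kept, since they are assembled transcripts. Tests were checked on simulated counts and FPKM. Alternatives were other scalings, filters, pseudocounts, tools, a replicate block and leaving out each library. Python 3.11.15, pandas 2.3.3 and matplotlib 3.10.9 drew the summaries.

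The members, the related gene lists and the marker lists were chosen with earlier results of these data known. All members are named, with the 2 highest and 2 lowest rows of each related list and stage, and protein-coding genes within 5 kb of a member, of which 1 is not reported here. No sequences were used here.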

Additional observations from a re-analysis of the deposited data

Results flagged for a closer look

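Both of the following rows lay outside the comparisons, because they carry the name of a member but list no Ensembl transcript, and both held more than the 3 counts that a count of 0 allows. Near the end of Gas5, an assembled row on chromosome 1 (161039096 to 161040329, 1234 bp) had 228, 194 and 210 counts at E0.5 and 251, 497 and 231 counts at E4.5, with a log2 fold change of -0.61 (SE 0.36, edgeR adjusted p = 0.420). As in most members E4.5 replicate 2 was high, here at 497 counts, but E4.5 replicate 3 lay just above the E0.5 counts. An assembled row named Snhg20 (chromosome 11, 117080087 to 117080562, 476 bp) had 79, 26 and 31 counts at E0.5 and 19, 24 and 2 counts at E4.5. Its highest value, 79 counts, was in E0.5 replicate 1, and its log2 fold change of 1.57 (SE 0.97, edgeR adjusted p = 0.442) was of the opposite sign to that of the Snhg20 row.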

How the results depend on the processing

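In the E0.5 and E4.5 comparison the number of members called after adjustment stayed at 0 under other scalings, filters and tools, and ranged from 0 to 1 with a library left out, the 1 being Zfas1 (-0.88, SE 0.18, edgeR adjusted p = 0.0343) without E4.5 replicate 3. The study criterion took 1 member with DESeq2 and 1 with no filter on low values, and 0 to 2 with a library left out, 1 of them (Snhg12) without E4.5 replicate 1. The median of the members ranged from -0.74 to -0.27 with a library left out, and Snhg12 from -2.78 to -0.11. Snhg12 was -1.22 with limma on log2(FPKM + 0.1) and -1.12 with the replicate block, and the Rcc1 and Snhg3 row -0.21 and -0.20. Only the Rcc1 and Snhg3 row changed sign, from -0.74 to 0.023, the latter without E4.5 replicate 1. Counts over all rows moved far more, from 730 to 5885 with DESeq2, 1126 at a mean of at least 1 FPKM and 3629 without E4.5 replicate 3. They fell to 23, 0 and 36 without E0.5 replicates 1, 2 and 3, to 46 without E4.5 replicate 1 and to 0.253% of rows without E4.5 replicate 2. Upper quartile scaling moved the median of all rows to 0.08 and that of the members to -0.42. Leaving out the rows without a gene name, chosen after seeing the data, called 739 rows and 0 members.

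Between E18.5 and E15.5 no setting called a member, while the 8 rows called of all became 3 to 27 under other filters, scalings and pseudocounts and without the trend, and 0 to 28 with a library left out. The study criterion took 1870 rows there and 514 with a pseudocount of 1. The median of the members at this stage ranged from -0.14 to -0.0068 with a library left out. The test between stages called 583 rows, 691 with a pseudocount of 1, 71 with the replicate block and 193 to 1271 with a library left out. Values near 0 changed sign. Quantile normalization gave -0.054 for Snhg5 and -0.0041 for Snhg15. With a library left out, Snhg1 ranged from -0.10 to 0.15, Gas5 from -0.18 to 0.077, Snhg5 from -0.15 to 0.15, Snhg6 from -0.12 to 0.031, Snhg12 from -0.23 to 0.18 and Snhg15 from -0.033 to 0.16. Snhg8 and Zfas1 kept their signs, from 0.048 to 0.34 and from -0.26 to -0.039. In the test between stages Snhg3 ranged from -0.29 to 0.52, Snhg12 from -1.96 to 0.0063 and Snhg20 from -0.059 to 0.45. The cause of these changes was not tested beyond the library left out.

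Replicate numbers were not taken as pairs. Same-numbered mice had correlations of their deviations of -0.0556, 0.0182 and -0.0628 at the first stage and 0.0170, 0.00069 and -0.0485 at the second. Those of mice with different numbers ran from -0.0712 to 0.0908 and from -0.0383 to 0.0407. With 3 mice per group these values cannot show whether same-numbered mice shared any handling. With the replicate block 0 members were called at either stage, the medians were -0.43 and -0.04, and 0 rows of 59732 and 2 of 30928 were called. With 3 mice per group, and 9 of 10 rows merged with small RNAs, a median based on rows without a small RNA rests on Snhg6 alone (-0.77 and -0.04).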
